A study of Mus musculus with 4 samples.

Results

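The genes described here encode the MYC family (*Myc*, *Mycn* and *Mycl*), their obligate partner MAX (*Max*), and the proteins that compete with the MYC family for MAX (*Mxd1*, *Mxi1*, *Mxd3*, *Mxd4*, *Mnt* and *Mga*). They were chosen by name, and all 10 were found among the 24411 genes listed in each library. RNA-seq had been performed on late two-cell stage mouse embryos of the ICR strain, produced by in vitro fertilization and collected at 36 hpi. Control embryos were cultured with DMSO, the solvent of the inhibitor (2 libraries), and 10074-G5-treated embryos were cultured with 6 µM 10074-G5, a small molecule that binds MYC and prevents its dimerization with MAX (2 libraries). Treatment began at the one-cell stage, which the labels place at 3 hpi and the methods of the study at a later hour. Each library pooled 10 embryos, so that variation between single embryos cannot be seen. No genetic change is labelled in either group, and 1 dose of 1 inhibitor was sequenced at 1 time point.

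MAX has no transactivation domain of its own and acts through its partners. A MYC–MAX heterodimer binds the E-box, a short DNA motif of which CACGTG is the canonical form, and promotes transcription. MXD–MAX and MNT–MAX heterodimers bind the same motif and recruit the SIN3 corepressor with histone deacetylases, whereas MGA, a very large protein that also carries a T-box DNA-binding domain, assembles a variant Polycomb complex (PRC1.6) with MAX. The inhibitor acts on the MYC protein, so the mRNA levels reported here are not a direct readout of dimer formation. *Myc* itself is transcribed from the embryonic genome during zygotic genome activation (ZGA), while oocytes also hand down stored transcripts.

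Because the E-box is the element at which these dimers compete, the promoters of the network genes were searched for it. RefSeq windows on GRCm38.p6, the assembly of the mm10 genome used by the authors, covered 250 bases before to 50 bases after each start site. They were found for 9 of the 10 genes (11 windows, 3 of them for *Mxi1*). No window was available for *Myc*, so its promoter was not searched. CACGTG, which reads the same on both strands, occurred in 3 windows, those of *Max*, *Mnt* and *Mxd4*, and in 7.15% of all 32851 windows. The variant CACGCG, searched on both strands (CGCGTG on the other), occurred in the windows of *Mga* and *Mycl* and in 9.27% of all windows. No window of *Mycn*, *Mxd1*, *Mxd3* or *Mxi1* held either motif. The sequences around the 5 matches are shown with the motif in capitals, on the strand of the gene. Counted from the start site of its window, the first base of the motif lay at position -3 in *Max*, so that the E-box spans that start. It lay at -123 in *Mnt*, -219 in *Mxd4*, -21 in *Mga* and -20 in *Mycl*. The start site of a window can lie inside the gene. The sequences shown for *Max*, *Mga* and *Mycl* fall within the spans given below for these genes, which begin further upstream. A match describes these letters only and is not evidence of binding in the embryo.
*Max*, chr12:76962219-76962298, minus strand: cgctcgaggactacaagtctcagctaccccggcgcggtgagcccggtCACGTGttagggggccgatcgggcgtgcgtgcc
*Mnt*, chr11:74830754-74830853, plus strand: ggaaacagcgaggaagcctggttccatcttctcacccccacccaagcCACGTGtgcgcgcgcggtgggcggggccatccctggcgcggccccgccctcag
*Mxd4*, chr5:34187877-34187960, minus strand: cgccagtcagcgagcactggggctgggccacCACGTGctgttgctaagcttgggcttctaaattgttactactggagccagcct
*Mga*, chr2:119897160-119897257, plus strand: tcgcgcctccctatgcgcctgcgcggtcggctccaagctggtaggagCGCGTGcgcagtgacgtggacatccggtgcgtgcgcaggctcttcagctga
*Mycl*, chr4:122995864-122995960, plus strand: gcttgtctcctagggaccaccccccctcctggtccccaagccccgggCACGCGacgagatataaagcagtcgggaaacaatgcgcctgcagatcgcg

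The libraries held from 18206584 to 20718690 expected counts, which are the fragments RSEM assigned to genes. All 7 markers of the two-cell embryo and all 9 oocyte markers exceeded 1 FPKM (fragments scaled to transcript length and library size, a level that can be compared between genes) in every library. Of 13 cumulus and granulosa cell markers, 4 had no count in any library, among them *Inha* and *Foxl2*, from 1 to 3 exceeded 1 FPKM, and the sum was 22.7 and 14.4 FPKM in DMSO and 12.9 and 7.69 FPKM in treated embryos. Of 8 sperm markers, 4 had no count, among them *Prm1*, 1 or 2 exceeded 1 FPKM, and the sum was 2.7 and 4.44 FPKM in DMSO and 16.1 and 9.43 FPKM in treated embryos. Of 9 markers of later preimplantation stages 2 to 4 exceeded 1 FPKM, with sums from 17.9 to 28.7 FPKM. DMSO replicate 1 had the lowest summed FPKM of the oocyte and two-cell markers, and both DMSO libraries were below both treated libraries. The sum of the oocyte markers was 933 and 2232 in DMSO replicates 1 and 2, and 4570 and 3787 in the treated replicates. That of the two-cell markers was 2073 and 3054 in DMSO and 4365 and 3880 in treated embryos. The part that these differences have in the results was not tested. In bulk RNA, fewer cells expressing a gene and less of its RNA per cell cannot be told apart. The labels do not say whether the libraries of a group came from separate fertilizations, so *P* values measure the spread between these libraries only.

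All 10 network genes passed the filter on low counts, and edgeR's quasi-likelihood test was fitted over 13549 genes. At |log2FC| > 1 and an adjusted *P* under 0.05 no network gene was called, and 0% of all genes tested were. DESeq2, fitted to every gene with a count, called none of the 6 network genes to which it gave an adjusted *P* (it gave none for *Mycn*, *Mycl*, *Mxd3* and *Mnt*), and called 6.57% of the 7971 genes with one. Fitted to the genes edgeR tested, it gave an adjusted *P* for 3 network genes and called none, against 9.3% of 6194 genes with one. In turn, limma on FPKM called none of the 8 it tested, and 0 of all 10625 genes tested. An unadjusted *P* under 0.05 was found for 3 network genes (*Myc*, *Max* and *Mxi1*) and for 14.9% of all genes. That share was 4.72% for genes higher in treated embryos, here 1 of 10, and 10.1% for genes lower in them, here 2 of 10. In CPM (counts scaled to library size after TMM), 8 of the 10 genes had no overlap between the groups, against 57.3% of all genes. Of these 8, *Mycn*, *Mycl*, *Max* and *Mxd1* were higher in both treated libraries (28.9% of all genes) and *Myc*, *Mxd3*, *Mnt* and *Mga* were lower in both (28.3% of all genes). The 2 remaining genes, *Mxi1* and *Mxd4*, overlapped because the DMSO libraries lay on either side of the treated libraries. Without DMSO replicate 1, an unadjusted *P* under 0.05 was again found for 3 genes (*Myc*, *Max* and *Mga*) against 13.8% of all genes, and none was called, against 0.0136%. Without DMSO replicate 2, when DMSO replicate 1 was the only control and was assumed to vary like the treated libraries, 5 were called (*Myc*, *Max*, *Mxd1*, *Mxi1* and *Mxd4*), against 28.7% of all genes. Without the filter on low counts 1 was called (*Mxi1*), against 3.54% of all genes. No test of the 4 libraries for a single value can give an exact permutation *P* under 0.333.

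CPM differed by more than 2-fold between the DMSO libraries for 5 of the 10 genes, against 43.4% of all genes, and by more than 10-fold for 2 of them (*Mxi1* and *Mxd4*), against 8.9% of all genes. Between the treated libraries no network gene differed by more than 2-fold, against 21.9% of all genes. The largest such difference was 1.86-fold, for *Mycl*.

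**Figure D1:**
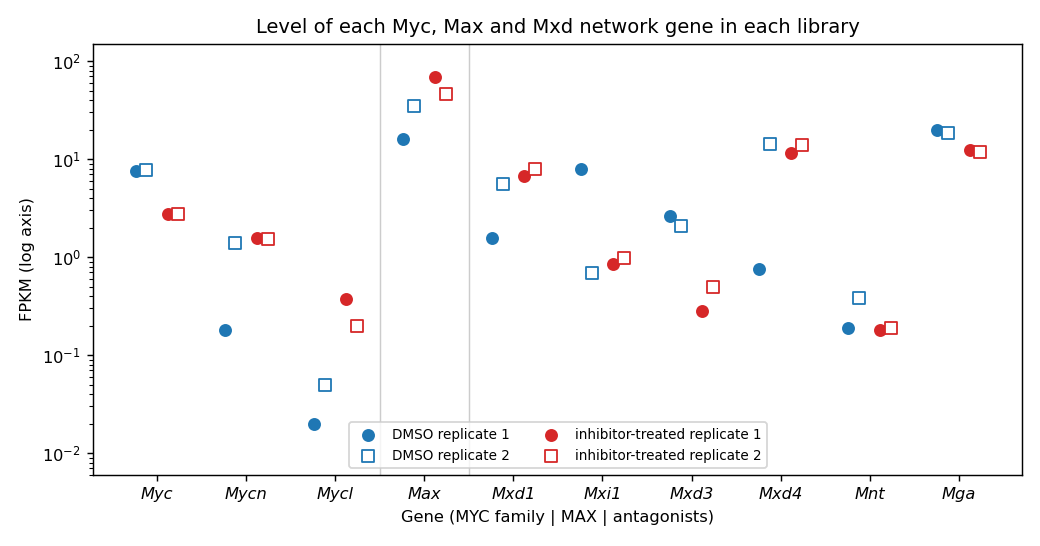
FPKM of the 10 network genes (log axis) in each of the 4 libraries, with DMSO libraries in blue and 10074-G5-treated libraries in red. *Myc* and *Mga* lay close together within each group, whereas *Mycn*, *Mxi1* and *Mxd4* were far apart in the 2 DMSO libraries, and *Max* was the highest of the genes in all libraries but DMSO replicate 1.

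*Myc* was the most abundant MYC family gene in every library. On chromosome 15 from 61985341 to 61990361, it had 7.59 and 7.81 FPKM in the DMSO libraries and 2.73 and 2.74 FPKM in the treated libraries. The 2 groups were well separated and the replicates nearly equal. The log2FC was -1.64 with a 95% confidence interval from -2.80 to -0.47 (adjusted *P* = 0.333), which corresponds to a mean CPM 3.11-fold higher in control embryos. Its adjusted *P* was 0.0208 without DMSO replicate 2 and from 0.232 to 0.992 without each of the other libraries.

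*Mycn*, which can substitute for *Myc* in development, did not show the pattern of *Myc*. It is on chromosome 12 from 12936093 to 12941836 and had 0.18 and 1.40 FPKM in the DMSO libraries, from 8 and 59 counts, and 1.56 and 1.55 FPKM in the treated libraries, from 75 and 71 counts. DMSO replicate 2 was thus next to the treated libraries, and only DMSO replicate 1 was low. The log2FC was 0.92 with all libraries and 0.15 without DMSO replicate 1. *Mycl* (chromosome 4, 122995588 to 123002490) was near the detection limit, with 1 and 3 counts in the DMSO libraries, no more than the floor of 3 counts, the most that finding 0 would allow, and with 23 and 12 counts in the treated libraries. Its summed count was higher in treated embryos by a ratio of 7.32 (95% interval from 2.62 to 28.4), which covers counting error only, and the adjusted *P* from edgeR was 0.50. Even so *Mycl* did not exceed 0.37 FPKM in any library.

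*Max* had the opposite direction to *Myc*. It lies on chromosome 12 from 76937269 to 76962323, and its level was 16.2 and 34.9 FPKM in the DMSO libraries and 68.8 and 46.4 FPKM in the treated libraries. Both treated libraries were above both DMSO libraries, and the replicates of each group were also apart, by 1.80-fold in CPM for DMSO and 1.51-fold for the treated embryos. The log2FC was 1.07 (95% confidence interval from 0.03 to 2.12, adjusted *P* = 0.334 from edgeR), a mean CPM 2.11-fold higher in treated embryos. Leaving out DMSO replicate 1 gave 0.72, and leaving out DMSO replicate 2 gave 1.56, when the adjusted *P* was 0.00669. Without each of the other libraries the adjusted *P* of *Max* was from 0.335 to 0.992. *Max* was higher than 84.6% of all listed genes in DMSO replicate 1 and than 93.3% in treated replicate 1, by FPKM. The order of the 4 libraries for *Max* was that of the summed oocyte markers and also of the summed two-cell markers, from DMSO replicate 1 as the lowest to treated replicate 1 as the highest, and what part either has in the values of *Max* was not tested.

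The ratio of *Max* to *Myc* does not depend on how libraries are scaled. In FPKM it was 2.14 and 4.47 in the DMSO libraries and 25.2 and 16.9 in the treated libraries. *Max* was also compared with the summed FPKM of *Myc*, *Mycn* and *Mycl*, giving ratios of 2.09 and 3.77 in DMSO and 14.8 and 10.3 in treated embryos. Transcripts of *Max* were fewer than those of its 9 partners together in both DMSO libraries (ratios 0.400 and 0.688) and more in both treated libraries (1.87 and 1.17). None of these ratios overlapped between the groups, and none can be tested below an exact *P* of 0.333 with 2 libraries against 2. For the ratios to *Myc* and to the MYC family, the lack of overlap adds nothing to the single levels. *Max* was higher, and *Myc* and the family sum were lower, in both treated libraries.

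The MXD proteins are short bHLH-ZIP repressors that are best known from differentiating cells. *Mxd1*, on chromosome 6 from 86647044 to 86669234, had 1.56 and 5.58 FPKM in the DMSO libraries and 6.72 and 7.99 FPKM in the treated libraries. The groups did not overlap, although DMSO replicate 2 was closer to the treated libraries than to DMSO replicate 1. Its log2FC was 0.97 (adjusted *P* = 0.432 from edgeR), 0.40 without DMSO replicate 1, and 1.97 without DMSO replicate 2 (adjusted *P* = 0.00587). Without each of the other libraries its adjusted *P* was from 0.662 to 0.992.

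*Mxi1*, which encodes another member of the MXD family, lies on chromosome 19 from 53310128 to 53373293. It had 708 counts (8.0 FPKM) in DMSO replicate 1 but only 57 counts (0.69 FPKM) in DMSO replicate 2, a 14.1-fold difference in CPM between libraries of the same group. The treated libraries had 83 and 91 counts, at 0.85 and 0.97 FPKM. So 3 of the 4 libraries were alike and the difference between the groups came from DMSO replicate 1. The log2FC was -2.47 with all libraries (adjusted *P* = 0.336 from edgeR, 0.0608 by DESeq2 fitted to every gene with a count and 0.00940 by edgeR without the low-count filter), and 0.45, with the sign turned, without DMSO replicate 1. By limma it was -1.03 on the log2(FPKM + 1) scale and -1.33 on the log2(FPKM + 0.1) scale. The transcript length that RSEM averaged over the 3 *Mxi1* isoforms also differed. It was 4903 bases in DMSO replicate 1, 4843 in DMSO replicate 2, 4996 in treated replicate 1 and 4996 in treated replicate 2. A different length means that the reads were assigned to a different mix of isoforms, but outside DMSO replicate 1 that assignment rested on fewer than 100 counts. The lengths of the individual isoforms were not used here.

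*Mxd3*, which unlike the other MXD genes is known from dividing cells, was lower in both treated libraries. On chromosome 13 from 55325170 to 55329900, it had 51 and 39 counts (2.61 and 2.10 FPKM) in the DMSO libraries and 6 and 10 counts (0.28 and 0.50 FPKM) in the treated libraries. The mean CPM was 6.78-fold higher in control embryos, and the log2FC was -2.74 (95% confidence interval from -5.66 to 0.18, adjusted *P* = 0.349 from edgeR). By limma the difference was -1.27 on the log2(FPKM + 1) scale, which understates the change of low genes, and -2.35 on the log2(FPKM + 0.1) scale. The direction did not depend on any 1 library, with a log2FC from -3.17 to -2.36 over the 4 fits that each omit a library. CPM differed by 1.48-fold between the DMSO libraries. The span of *Mxd3* overlaps that of *Prelid1*, whose counts were 1453 and 1287 in DMSO and 1183 and 1366 in treated embryos. The kit does not mark strand as far as the sources used here tell, so reads from the shared stretch could have gone to either gene.

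*Mxd4* was the mirror image of *Mxi1*. Located on chromosome 5 from 34176580 to 34187710, it had 13 counts (0.76 FPKM) in DMSO replicate 1 and 233 (14.2 FPKM), 218 (11.6 FPKM) and 247 (13.9 FPKM) in DMSO replicate 2 and the treated libraries. The DMSO libraries differed by 15.9-fold in CPM, more than any other gene of the network. The log2FC was 0.74 with all libraries (adjusted *P* = 0.746 from edgeR), -0.16 without DMSO replicate 1 and 3.80 without DMSO replicate 2. On the log2(FPKM + 1) scale limma gave 1.40. For the 2 genes together, no difference between treated and control embryos can be separated from the difference between the control libraries.

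*Mnt* encodes the MXD-like repressor that is found in most proliferating cells alongside MYC. Its transcript was scarce in these embryos, with 16 and 30 counts (0.19 and 0.38 FPKM) in the DMSO libraries and 16 and 16 counts (0.18 and 0.19 FPKM) in the treated libraries, on chromosome 11 from 74830806 to 74845725. The library values overlapped in FPKM, and in CPM they were separated by less than the gap between the DMSO libraries. The log2FC was -0.75 with a 95% confidence interval from -3.98 to 2.47, which holds differences in both directions. In both treated libraries *Mnt* had the lowest FPKM of the network.

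*Mga* was the most abundant antagonist in 3 of the 4 libraries, and *Mxd4* in treated replicate 2. It lies on chromosome 2 from 119872503 to 119970129 and had 5085 and 4542 counts (19.7 and 18.5 FPKM) in the DMSO libraries and 3454 and 3145 counts (12.5 and 11.8 FPKM) in the treated libraries. Both groups were tight and did not overlap. The mean CPM was 1.76-fold higher in control embryos, with a log2FC of -0.81 (95% confidence interval from -1.63 to 0.01, adjusted *P* = 0.338 from edgeR). Over the fits that each omit a library its log2FC lay between -0.98 and -0.62, and the adjusted *P* was 0.00759 without DMSO replicate 2 and from 0.261 to 0.992 without each of the others, but the size was below the threshold of 1 in all of these fits. The mean length of its 2 listed isoforms was 13739 and 13738 bases in the DMSO libraries and 13609 and 13704 bases in the treated libraries. The ratio of *Mga* to *Myc* FPKM was 2.60 and 2.37 in DMSO and 4.58 and 4.32 in treated embryos, since *Myc* differed by more than *Mga*.

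**Figure D2:**
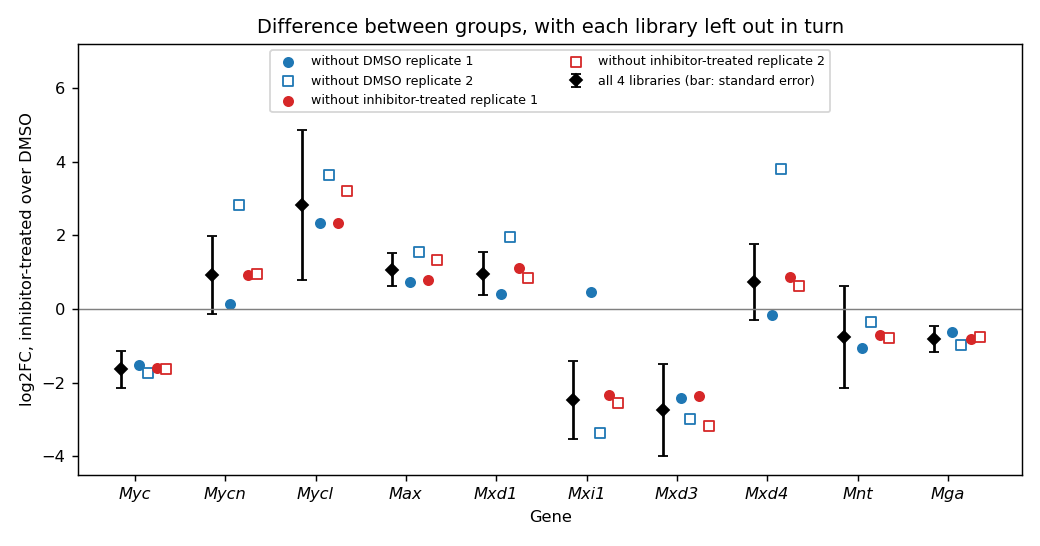
Log2FC of each network gene in 10074-G5-treated over DMSO embryos with all 4 libraries (black, bars are the standard error) and in the 4 fits that each omit a library (colored points). Over the latter fits *Myc* ranged from -1.74 to -1.51, *Mga* from -0.98 to -0.62 and *Mxd3* from -3.17 to -2.36. *Mxi1* and *Mxd4* crossed 0 without DMSO replicate 1.

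Summed by role in the deposited FPKM, the MYC family and *Max* differed between the groups in opposite directions. On that scale the antagonists did not separate the groups. The MYC family summed to 7.79 and 9.26 FPKM in DMSO and 4.66 and 4.49 FPKM in treated embryos. *Myc* made up most of that sum in every library. The 6 antagonists summed to 32.8 and 41.5 FPKM in DMSO and 32.2 and 35.3 FPKM in treated embryos, which is 37.2 ± 6.15 (SD, n = 2) against 33.8 ± 2.25 (SD, n = 2). In FPKM that difference was smaller than the spread between the DMSO libraries (exact two-sided permutation test, *P* = 0.667). The log2 ratio of the means turned from -0.14 to 0.04 without DMSO replicate 2. The deposited FPKM do not carry the TMM factors, which were 0.873 and 1.04 in DMSO and 1.04 and 1.06 in treated libraries. Scaling by these factors would raise DMSO replicate 1 relative to the others. The overlap, the *P* value and the turned sign therefore hold for the FPKM scale only. Relative to the MYC family, the antagonists stood at 4.22 and 4.48 in DMSO and at 6.90 and 7.87 in treated embryos, so the groups were apart in this ratio.

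The makeup of the antagonist pool, given as shares that do not depend on how libraries are scaled, differed between the libraries. *Mga* gave 60.1% of the summed antagonist FPKM in DMSO replicate 1, 44.6% in DMSO replicate 2, and 38.9% and 33.5% in the treated libraries. The share of *Mxd4* was 2.31% in DMSO replicate 1 and 34.3%, 36.2% and 39.2% in the others. *Mxi1* held 24.4% of the pool in DMSO replicate 1 and from 1.66% to 2.75% elsewhere. For *Mxd1* the shares were 4.75% and 13.4% in DMSO and 20.9% and 22.6% in treated embryos. Those of *Mxd3* were 7.95% and 5.06% in DMSO and 0.871% and 1.42% in treated embryos. In its antagonists DMSO replicate 2 was therefore like the treated libraries for *Mxd4* and *Mxi1*, and like DMSO replicate 1 for *Mxd3*.

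**Figure D3:**
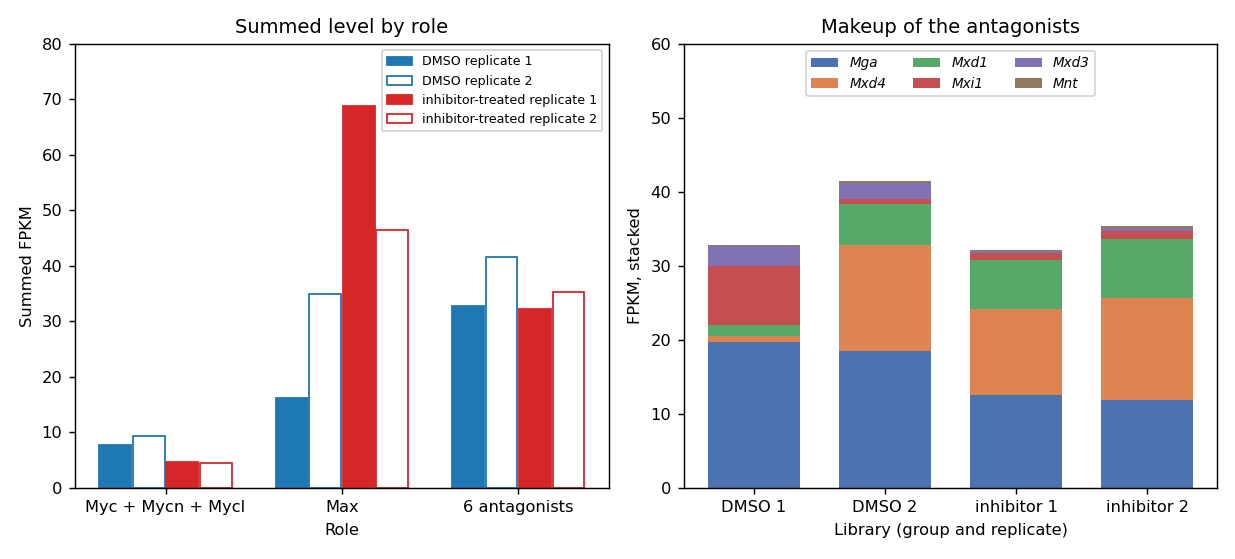
Summed FPKM of the MYC family, *Max* and the 6 antagonists in each library (left), and the stacked FPKM of the antagonists (right). *Max* ranges from 16.2 FPKM in DMSO replicate 1 to 68.8 FPKM in treated replicate 1, while the antagonist sum lies between 32.2 and 41.5 FPKM with a different makeup in DMSO replicate 1.

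In FPKM, *Max*, *Mga*, *Mxd4*, *Mxd1* and *Myc* were the 5 highest genes in both treated libraries. In treated replicate 1 *Mga* (12.5) and *Mxd4* (11.6) were neighbors and in treated replicate 2 their order was the reverse, so these 2 genes did not differ beyond the spread between replicates. Among these 5 genes the order in treated replicate 1 was also that of DMSO replicate 2, except that *Myc* stood above *Mxd1*. Below them *Mxd3* was the next gene in DMSO replicate 2, but it stood below *Mycn*, *Mxi1* and *Mycl* in treated replicate 1. In DMSO replicate 1 the 5 highest genes were, in order, *Mga*, *Max*, *Mxi1*, *Myc* and *Mxd3*. *Mycl* or *Mnt* was the lowest gene in every library.

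MAX is linked to a second network through MLX, which pairs with some MXD proteins and MNT and with the glucose-responsive factors MLXIP and MLXIPL. *Mlx* had 2.55 and 5.38 FPKM in DMSO and 10.9 and 5.61 FPKM in treated embryos. The values of DMSO replicate 2 and treated replicate 2 were nearly equal, and the log2FC was 0.94 (adjusted *P* = 0.469 from edgeR). *Mlxip* ranged from 3.95 to 5.95 FPKM and *Mlxipl* from 1.45 to 4.0 FPKM over the 4 libraries, with overlap between the groups for both. None of the 3 genes had an unadjusted *P* under 0.05.

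The complexes through which the antagonists act were described next, from lists written with general knowledge but with earlier results of these data known. The same holds for the lists that follow. Of the 18 SIN3 and histone deacetylase genes, 11 had a lower and 7 a higher mean in treated embryos, with a median log2FC of -0.13 beside 0.04 for all genes tested. No gene of the list was called by edgeR, and 3 had an unadjusted *P* under 0.05, all with lower values in treated embryos (10.1% of all genes), which were *Brms1l*, *Sap30* and *Hdac1*. DESeq2 called 0 of 18 when fitted to every gene with a count (6.57% of genes with an adjusted *P*), and 1 of the 16 given an adjusted *P* when fitted to the genes edgeR tested (9.3% of such genes). *Hdac1*, which encodes the catalytic deacetylase, had CPM values of 360 and 214 in DMSO and 154 and 136 in treated embryos (log2FC -0.99, adjusted *P* = 0.333 from edgeR, and -0.55 without DMSO replicate 1). Those of its paralog *Hdac2* were higher in both treated libraries, with a log2FC of 0.64. *Sin3a* and *Sin3b*, the scaffolds that bind the MXD proteins, had a log2FC of 0.35 and 0.59. *Sap30*, which encodes a SIN3-associated subunit, had 487 CPM in DMSO replicate 1, and 183, 105 and 159 CPM in DMSO replicate 2 and the treated libraries. *Brms1l*, which encodes another subunit of the complex, had CPM values of 128 and 60.7 in DMSO and 35.2 and 34.6 in treated embryos. DMSO replicate 1 was the highest library for all 3 genes, and without it the list median was 0.01 and 2 genes, both lower, had an unadjusted *P* under 0.05 (7.36% of all genes).

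Among the partners of MGA in PRC1.6, 12 of 13 genes were tested, and 9 were lower and 3 higher in treated embryos. All 9 lower genes (28.3% of all genes) and 2 of the higher genes (28.9% of all genes) had no overlap between the groups. The median log2FC was -0.63, and -0.25 without DMSO replicate 1. By edgeR 0 genes of this list were called and 2, *Ehmt1* and *Cbx3*, had an unadjusted *P* under 0.05 with lower values (10.1% of all genes). DESeq2 called 0 of the 11 given an adjusted *P* when fitted to every gene with a count (6.57% of all genes given one). Fitted to the genes edgeR tested, it called 0 of 10 (9.3% of all genes given one). *Ehmt1* and *Ehmt2* encode the paired methyltransferases of histone H3 lysine 9, and *Cbx3* encodes an HP1 protein that reads this mark. The CPM of *Ehmt1* was 72.8 and 36.4 in DMSO and 22.2 and 25.9 in treated embryos (log2FC -1.18, adjusted *P* = 0.333 from edgeR), that of *Cbx3* 424 and 199 against 137 and 150, and that of *Ehmt2* 17.1 and 7.63 against 2.92 and 6.34. DMSO replicate 1 was the highest library for all 3 genes, and without it the log2FC values were -0.58, -0.46 and -0.70. Further subunits, *L3mbtl2*, *Pcgf6* and *E2f6*, had a log2FC of -0.96, -0.61 and -1.37 without passing the test.

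The list of 28 genes for MYC protein turnover and phosphorylation had 20 lower and 8 higher genes and a median log2FC of -0.23. None was called by edgeR, and 5 had an unadjusted *P* under 0.05, all with lower values in treated embryos (10.1% of all genes). DESeq2 called 0 of the 26 given an adjusted *P* when fitted to every gene with a count (6.57% of such genes), and 2 of 22 when fitted to the genes edgeR tested (9.3%). The first 3 were *Usp22* (log2FC -1.47), which encodes a deubiquitinase of the SAGA coactivator, *C330027C09Rik* (-1.22), the symbol used in the files for *Cip2a*, and *Set* (-1.43), the last 2 encoding inhibitors of the phosphatase PP2A that destabilizes MYC. Without DMSO replicate 1 these values were -0.76, -0.62 and -0.56. *Fbxw7*, which encodes the best known ubiquitin ligase receptor of MYC, had a log2FC of 0.20, and *Huwe1*, a large ubiquitin ligase, of -0.10. Of the kinases that mark MYC for the receptor encoded by *Fbxw7*, *Gsk3b* had a log2FC of -0.61 and *Gsk3a* of 0.96.

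A list of 12 other bHLH factors that bind E-boxes had 7 higher and 5 lower means in treated embryos and a median log2FC of 0.57. It holds *Clock* and *Arntl*, 2 bHLH-PAS genes without a leucine zipper, and the 10 bHLH-ZIP genes alone had 5 higher and 5 lower means and a median of 0.12. No gene of this list had an unadjusted *P* under 0.05 by edgeR. By DESeq2 fitted to every gene with a count 2 had one, both lower (9.5% of all genes). Of the 6 genes given an adjusted *P* by that fit, 0 were called (6.57% of all genes given one). *Tfap4*, which is known as a target of MYC, had CPM values of 16.5 and 6.67 in DMSO and 4.64 and 3.86 in treated embryos (log2FC -1.44). The values of *Usf2*, which encodes a ubiquitous E-box factor, were 1.56 and 4.02 in DMSO and 9.65 and 6.25 in treated embryos (log2FC 1.51). *Tfe3*, a regulator of lysosomal genes, had 14.8 and 20.5 CPM in DMSO and 31.2 and 32.7 CPM in treated embryos (log2FC 0.85). Without DMSO replicate 1 the log2FC was -0.64 for *Tfap4*, 0.99 for *Usf2* and 0.65 for *Tfe3*.

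Of the regulators that feed into *Myc* transcription, 13 of 14 genes were tested, with 5 higher and 8 lower, and a median log2FC of -0.16. By edgeR 0 genes were called, and 1 higher (4.72% of all genes) and 2 lower genes (10.1%) had an unadjusted *P* under 0.05. DESeq2 called 0 of the 11 given an adjusted *P* in either fit. Of all genes given one it called 6.57% when fitted to every gene with a count, and 9.3% when fitted to the genes edgeR tested. *Tcf7*, which encodes a DNA-binding partner of β-catenin, had CPM values of 3.71 and 2.96 in DMSO and 8.58 and 11.9 in treated embryos (log2FC 1.62, adjusted *P* = 0.333 from edgeR), and the difference was 1.80 without DMSO replicate 1. *Ctnnb1*, which encodes β-catenin, had 140 and 76.0 CPM in DMSO and 53.8 and 51.6 CPM in treated embryos (log2FC -1.03), and *Ccnt1*, a subunit of the elongation kinase P-TEFb, 163 and 92.1 against 53.8 and 67.5 (log2FC -1.07). Without DMSO replicate 1 the latter values were -0.51 and -0.59. *Tcf7* was thus the 1 gene of these 3 whose difference did not shrink without that library.

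A panel of 20 genes commonly used as E-box targets of MYC and MAX was examined, of which 19 were tested, 16 had lower and 3 higher means in treated embryos, and 15 of the lower genes did not overlap between the groups (28.3% of all genes). The median log2FC was -1.16 with all libraries and -0.50 without DMSO replicate 1. None was called by edgeR, and 11 of the lower genes (10.1% of all genes) and 1 higher gene (4.72%) had an unadjusted *P* under 0.05. DESeq2 called 2 of the 17 given an adjusted *P* when fitted to every gene with a count (6.57% of such genes), and 4 of 16 when fitted to the genes edgeR tested (9.3%). *Prdx3*, which encodes a mitochondrial peroxiredoxin, had 133 and 41.5 CPM in DMSO and 10.8 and 21.7 CPM in treated embryos (log2FC -2.43, adjusted *P* = 0.333 from edgeR). *Nme1* had 337 and 128 CPM in DMSO and 62.5 and 76.5 CPM in treated embryos (log2FC -1.74), and its neighbor *Nme2* 542 and 360 against 181 and 213 (log2FC -1.20). The latter encode closely similar nucleoside diphosphate kinases, which makes their separate counts uncertain. Without DMSO replicate 1 the log2FC was -1.34 for *Prdx3* and -0.86 for both *Nme1* and *Nme2*. *Hspe1*, the mitochondrial chaperonin cofactor, was among the 3 higher genes, with a log2FC of 1.01.

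**Figure D4:**
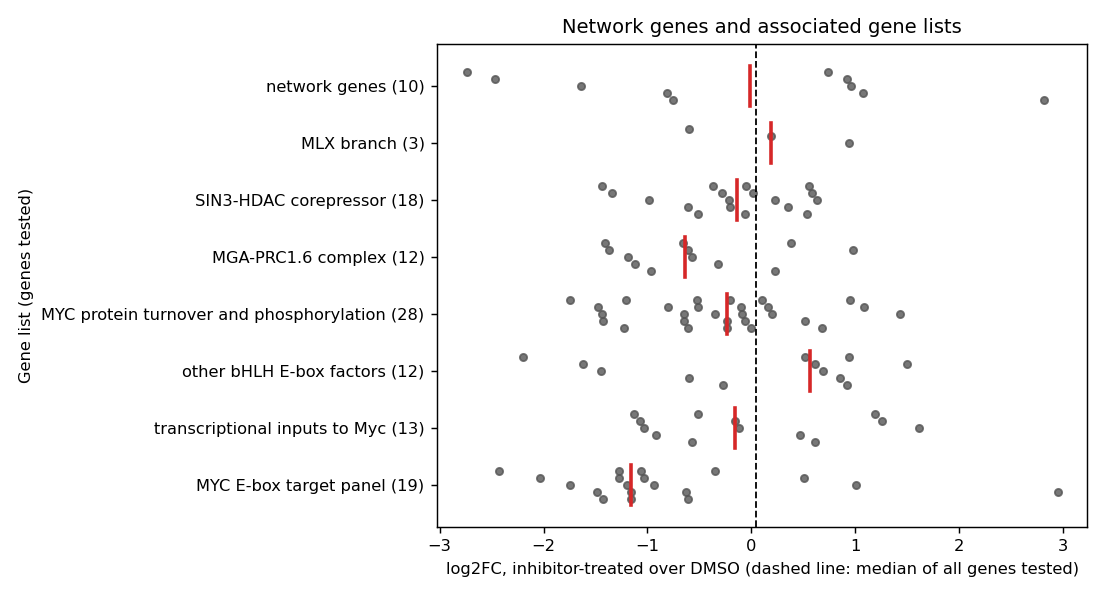
Log2FC of each tested gene (points) in the network and in 7 associated lists, with the median of each list (red line) and that of all genes tested (dashed line, 0.04). The network genes lie on both sides of 0 with a median of -0.01, the MGA complex has a median of -0.63 and the target panel one of -1.16.

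The genes most like *Myc* and *Max* across the 4 libraries were sought by the Euclidean distance between log2 CPM values centered on each gene's mean. *Man1b1*, *Isoc2b* and *Urm1* were closest to *Myc*, at distances of 0.130, 0.140 and 0.149. *Tubb6*, *Yipf6* and *Armc10* were closest to *Max*, at 0.0497, 0.0517 and 0.0585. Within a distance of 0.25 there were 13 genes for *Myc* and 87 for *Max*, so the pattern of *Max* was the more common of the 2. With 4 libraries this likeness is a description only.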

How the data were processed

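The 4 libraries were grouped and numbered by their labels. The authors aligned read pairs to mm10 with STAR (2.7.10), kept uniquely mapped reads and ran RSEM (1.3.3). The deposited expected counts are unnormalized. The deposited FPKM and TPM values are scaled to effective length and library by the authors. TPM served as an alternative. PCR copies are counted as molecules. The interval of the summed *Mycl* count covers counting error only. The confidence intervals of log2FC come from the edgeR fit and include the spread between libraries.

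Expected counts were rounded, filtered with filterByExpr (minimum count 10, total 15), scaled with TMM (factors from 0.873 to 1.06) and tested with edgeR 4.0.16 (robust quasi-likelihood, Benjamini-Hochberg over 13549 genes, R 4.3.3). A call needed |log2FC| > 1 with an adjusted p below 0.05. Replicates had a common biological coefficient of variation of 0.557. DESeq2 1.42.0 and limma 3.58.1 on log2 values of the deposited FPKM plus 1 or 0.1 (mean FPKM 1 or more) were alternatives. The replicate numbers are not stated to mark a shared batch, and the deviations of same-numbered libraries had a correlation of -0.02 across genes. CPM values are TMM-scaled.

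The network genes, the 7 gene lists and the markers were chosen with earlier results of these data known. Beyond the network, the genes named are the 3 per list that had the smallest unadjusted p among those without overlap, the 3 MLX genes, and the 3 genes nearest to *Myc* and to *Max*. *Hdac2*, *Sin3a*, *Sin3b*, *L3mbtl2*, *Pcgf6*, *E2f6*, *Fbxw7*, *Huwe1*, *Gsk3a*, *Gsk3b*, *Hspe1* and *Prelid1* were added for their roles or position after their values were seen. Loci and promoters are from RefSeq on GRCm38.p6. Protein sequences were not used here.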

Additional observations from a re-analysis of the deposited data

How the results depend on the processing

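The fewest counts were those of *Mycl* (1 to 23), *Mxd3* (6 to 51) and *Mnt* (16 to 30), whose values depth limits. Against 0 called genes, DESeq2 called 576 on the genes edgeR tested, 524 on every gene with a count and 525 with RSEM lengths as offsets. Without the low-count filter 644 were called, among them *Mxi1* (log2FC -2.47). A replicate block gave 44 calls and no network gene (*Mxi1* -1.497, *Mxd4* 1.71). Whether same-numbered libraries shared a batch is not stated, and the correlation of their deviations (-0.02) cannot settle it. Omitting single libraries gave from 2 to 4213 calls, the most without DMSO replicate 2. The log2FC then ranged from -1.74 to -1.51 for *Myc*, 0.72 to 1.56 for *Max*, 0.40 to 1.97 for *Mxd1*, -3.37 to 0.45 for *Mxi1* and -0.16 to 3.80 for *Mxd4*, the last 2 turning sign without DMSO replicate 1, and the antagonist sum from -0.299 to 0.0394, the latter without DMSO replicate 2. List medians ranged from -0.256 to 0.0125 (SIN3), -0.78 to -0.25 (PRC1.6), -0.408 to -0.0919 (MYC turnover), 0.29 to 0.79 (other bHLH), -0.261 to 0.0633 (inputs to *Myc*) and -1.58 to -0.50 (target panel). Under limma with a pseudocount of 1 or 0.1 they were 0.0103 and 0.0101 (SIN3), -0.0740 and -0.0785 (turnover), 0.83 and 0.95 (other bHLH), and -0.221 and -0.224 (inputs). Library totals in place of TMM moved the median of all genes from 0.04 to 0.17 (limma 0.12 and 0.16, without DMSO replicate 2 0.22) and gave 0.0206 (SIN3), -0.0749 (turnover) and -0.028 (inputs). The inputs had -0.194 with RSEM lengths and -0.307 with at least 10 counts in every library. The cause was not tested. In all, 9 of 263 values turned sign, counting shifts within the spread between replicates.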
